A study of Mus with 3 samples.

Results

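The expression of 10 genes of the NF-κB system was followed across the cells of MC38 tumors of 3 mouse genotypes, named WT, RARα-KO and RARα-TG. The genes were chosen by name out of the 32285 genes of the count matrix. Nfkb1 (ENSMUSG00000028163, chromosome 3, 135584655 to 135691969), Nfkb2 (ENSMUSG00000025225, chromosome 19, 46300994 to 46312400), Rel (ENSMUSG00000020275, chromosome 11, 23736847 to 23770969) and Relb (ENSMUSG00000002983, chromosome 7, 19606217 to 19629438) code for subunits. Nfkbia (ENSMUSG00000021025, chromosome 12, 55489409 to 55492647) codes for IκBα, the cytoplasmic inhibitor, and Tnfaip3 (ENSMUSG00000019850, chromosome 10, 19000910 to 19015410) for A20, which edits ubiquitin chains on signalling proteins. Nfkbid (ENSMUSG00000036931, chromosome 7, 30421731 to 30428749), Nfkbiz (ENSMUSG00000035356, chromosome 16, 55811375 to 55838954) and Bcl3 (ENSMUSG00000053175, chromosome 7, 19808462 to 19822824) code for IκB proteins that act in the nucleus. Traf1 (ENSMUSG00000026875, chromosome 2, 34941750 to 34961812) codes for an adaptor of TNF receptors. Coordinates are of GRCm38.p6 and were matched by gene symbol. In that annotation Nfkb2 overlaps Psd and 4833438C02Rik, Bcl3 overlaps Gm16174, Nfkb1 overlaps Gm46827 and Traf1 overlaps Gm52552, so that reads of those stretches may be shared.

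NF-κB is a family of dimeric transcription factors that IκB proteins hold in the cytoplasm until antigen receptors, TNF family receptors or Toll-like receptors activate the IκB kinases. The canonical branch frees dimers that hold the products of Nfkb1, Rela and Rel, and the alternative branch processes the product of Nfkb2 and frees dimers with RelB. Many of the genes followed here are themselves NF-κB targets, and Nfkbia and Tnfaip3 are textbook examples of negative feedback. IκBNS, the product of Nfkbid, and IκBζ, the product of Nfkbiz, bind nuclear dimers and modify which target genes they act on.

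Tumors of MC38, a mouse colon carcinoma line, were taken on day 16. RARα-KO mice were dLck-Cre×Rara L/L, in which a Cre driven by the distal Lck promoter deletes part of Rara in T cells, and RARα-TG mice were CD2-Rara, which drives Rara from the CD2 promoter and is likewise active in lymphoid cells. The WT control strains of the study were C57BL/6 and dLck-Cre, and most of its experiments used young adult mice. The paper states that both sexes were used at first and mainly males later. Which control strain gave this tumor, and the sex, age and number of its mice, were not given in the sources used here, so each genotype was treated as 1 sample. Cells carrying hashtag C0301 (WT), C0302 (RARα-KO) or C0303 (RARα-TG) were pooled into 1 library, made of sorted CD45.2+ CD3+ T cells plus unsorted cells of the same suspensions, and read with a 5′ kit and T cell receptor amplification. The labels also name spleen and activated naive CD8 T cells, which the cells do not bear out, since 442 of them were MC38 or stromal cells and stromal Col3a1 stood at 1406 CPM in the MC38 or stromal cells of WT. CPM is the unit used throughout: UMIs of a gene summed over the cells of a class, per 1000000 of their gene UMIs. UMIs count transcript molecules from the 5′ end and were not divided by length.

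Of 5585 cells called, 1927 were from WT, 2103 from RARα-KO and 895 from RARα-TG tumors, with 17766060, 16191256 and 4011140 gene UMIs. With 1 sample per genotype no test was possible. Differences are log2 ratios of CPM with exact 95% intervals that cover counting error only, so that an interval off 0 says nothing about variation between mice. A gene was counted as higher or lower past 1.5-fold, and the share of all tested genes past that size in the same direction is given for each comparison. Cytotoxic T lymphocytes (CTLs) were the barcodes of T cell clusters with a Cd8a UMI but none of Cd4, and numbered 842 in WT, 1176 in RARα-KO and only 113 in RARα-TG. Rara was at 85.4, 78.9 and 191 CPM in these CTLs, in the same order; whether the 5′ reads cover the deleted part was not examined, so the RARα-KO label is not checked by them. The leading hashtag held 80% or more of a cell's hashtag UMIs in 546 of 842 CTLs and 23 of 78 macrophages of WT, against 1176 of 1176 and 126 of 127 in RARα-KO, and values without the other cells are given beside the WT results of macrophages and of expanded CTLs. T cell receptor RNA also differed between macrophages: Trbc2 was at 6.94 CPM in those of WT, 118 in those of RARα-KO and 36.6 in those of RARα-TG.

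The 10 genes were spread over the cell classes in different ways. Nfkbia was the most abundant of the 10, in CPM, in every class with 20 or more cells of a genotype other than the CTLs of RARα-TG, where Tnfaip3 was above it. Its level was 9160.1 CPM in the 57 neutrophils of all genotypes, 2062 in macrophages, 1927 in mature dendritic cells, 1393 in MC38 or stromal cells, 1105 and 955 in CD4+ T cells with and without a Foxp3 UMI, 644 in the other dendritic cells and 438 in CTLs. The counting intervals of neighbours in this order overlapped only between macrophages and mature dendritic cells. Nfkbiz shared the top of that order, at 1062 CPM in neutrophils and 335 in macrophages, but it was low in CTLs (91.8) and in MC38 or stromal cells (108).

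The subunits Rel, Relb and Nfkb2 and the adaptor Traf1 had their highest level in mature dendritic cells (dendritic cells with 2 or more UMIs of Ccr7 and Fscn1 together). Rel stood at 810.1 CPM (720.4 to 908) there, against 283 in the other dendritic cells, 259 in macrophages, 217 and 208 in Foxp3+ and Foxp3- CD4+ T cells, 131 in CTLs and 27.1 in MC38 or stromal cells. Relb stood at 577 CPM (502 to 661) in mature dendritic cells and next at 192 CPM in Foxp3+ CD4+ T cells, and its lowest level was 71.8 CPM in MC38 or stromal cells. Nfkb2 went from 337 CPM in mature dendritic cells over 196 in Foxp3+ CD4+ T cells to 95.9 in macrophages and 52.6 in neutrophils. Nfkb1 varied less, with 348 CPM in mature dendritic cells, 329 and 293 in Foxp3- and Foxp3+ CD4+ T cells, and 158 to 211 in the other classes apart from MC38 or stromal cells (62.6). Traf1 had 791 CPM in mature dendritic cells and 662 in Foxp3+ CD4+ T cells.

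Bcl3, whose product joins homodimers of the Nfkb1 and Nfkb2 products on DNA, was highest in the other dendritic cells (427 CPM) and in Foxp3+ CD4+ T cells (361). Tnfaip3 was highest in neutrophils (702 CPM) and Foxp3- CD4+ T cells (474). Nfkbid, known for its induction by antigen receptor signals, ranged in lymphoid and myeloid cells from 76.1 CPM in the other dendritic cells to 272 in neutrophils. In MC38 or stromal cells, the class with the most UMIs per cell, Nfkbid was at 11.5, Rel at 27.1, Traf1 at 33.7 and Tnfaip3 at 38.4 CPM, each the lowest of all classes. In barcodes that held no cell, the 10 genes were at 85.2 (Nfkbid) to 733 CPM (Nfkbia), so that the low values in MC38 or stromal cells lie below the level in free RNA.

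**Figure D1:**
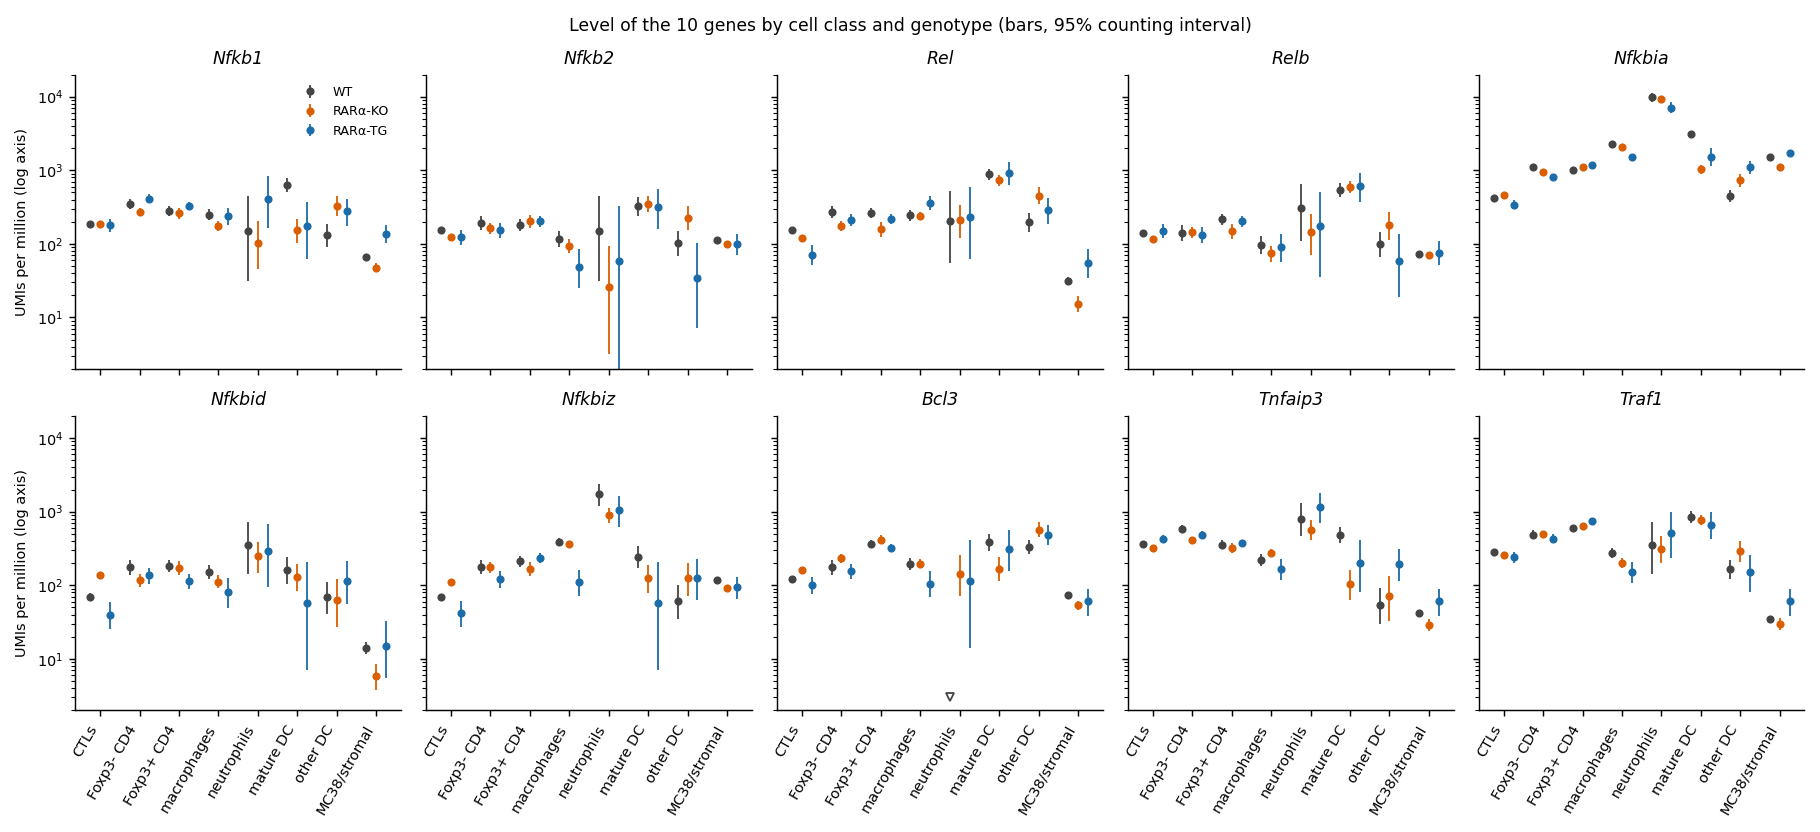
CPM of each of the 10 genes (log axis) in 8 cell classes for WT, RARα-KO and RARα-TG, with 95% counting intervals as bars; the open triangle marks 0 UMIs of Bcl3 in the 10 neutrophils of WT. Nfkbia and Nfkbiz peak in neutrophils, Rel, Relb and Traf1 in mature dendritic cells, and Nfkbid, Rel, Tnfaip3 and Traf1 are lowest in MC38 or stromal cells.

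Across the 20 groups of a class and a genotype with 20 or more cells, the genes whose pattern on log2(CPM + 10) was most like Nfkbia were Dusp1 (Pearson r = 0.94) and Ppp1r15a (0.93), out of 11774 candidates. For Nfkb1 they were Skil (0.93) and Smpdl3a (0.91), for Nfkb2 Srcap (0.95) and Mta3 (0.95), and for Rel Acsl4 (0.92) and Arpc3 (0.91). Among the 10 genes themselves, r ran from -0.56 between Nfkb2 and Nfkbia to 0.89 between Tnfaip3 and Traf1. The groups include T cells outside the CTL and CD4+ T cell gates but no mature dendritic cells, which were under 20 in each genotype. The groups share 1 library and several hold the same class, so these values only describe these cells.

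Where in the CTLs the genes were expressed was asked next. The clustering left the 10 genes and the lists below out of the genes it used, so that their levels did not enter it. Other genes that vary with them stayed in, so the clusters are not independent of these levels. Nfkbid was itself among the 10 leading genes of cluster 0. Nfkbid was concentrated in cluster 0, led by Xcl1 and Ifng: it stood there at 366 CPM in WT and 366 in RARα-KO, against 24.7 and 30.6 in cluster 2 (Klre1, Gzma), 15.6 and 18.5 in cluster 14 (Gzmd, Gzme, Gzmf), and 8.43 and 29.2 in cluster 1 (Prf1, Gzmb). Nfkb1 was at 474 CPM in WT and 407 in RARα-KO in cluster 0 and at 97.0 and 86.1 in cluster 1. Rel, Nfkbia and Nfkbiz had their WT maximum in cluster 0 too, at 360.4, 827 and 208 CPM. Tnfaip3 differed from them, since its WT level was higher in cluster 5, led by Tcf7 and S1pr1, at 722 CPM against 552 in cluster 0. Clusters 1, 2 and 14 therefore held little Nfkbid and Nfkbiz, whereas Tnfaip3 and Traf1 were well detected in them, at 306 and 250.3 CPM in cluster 14 of WT.

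**Figure D2:**
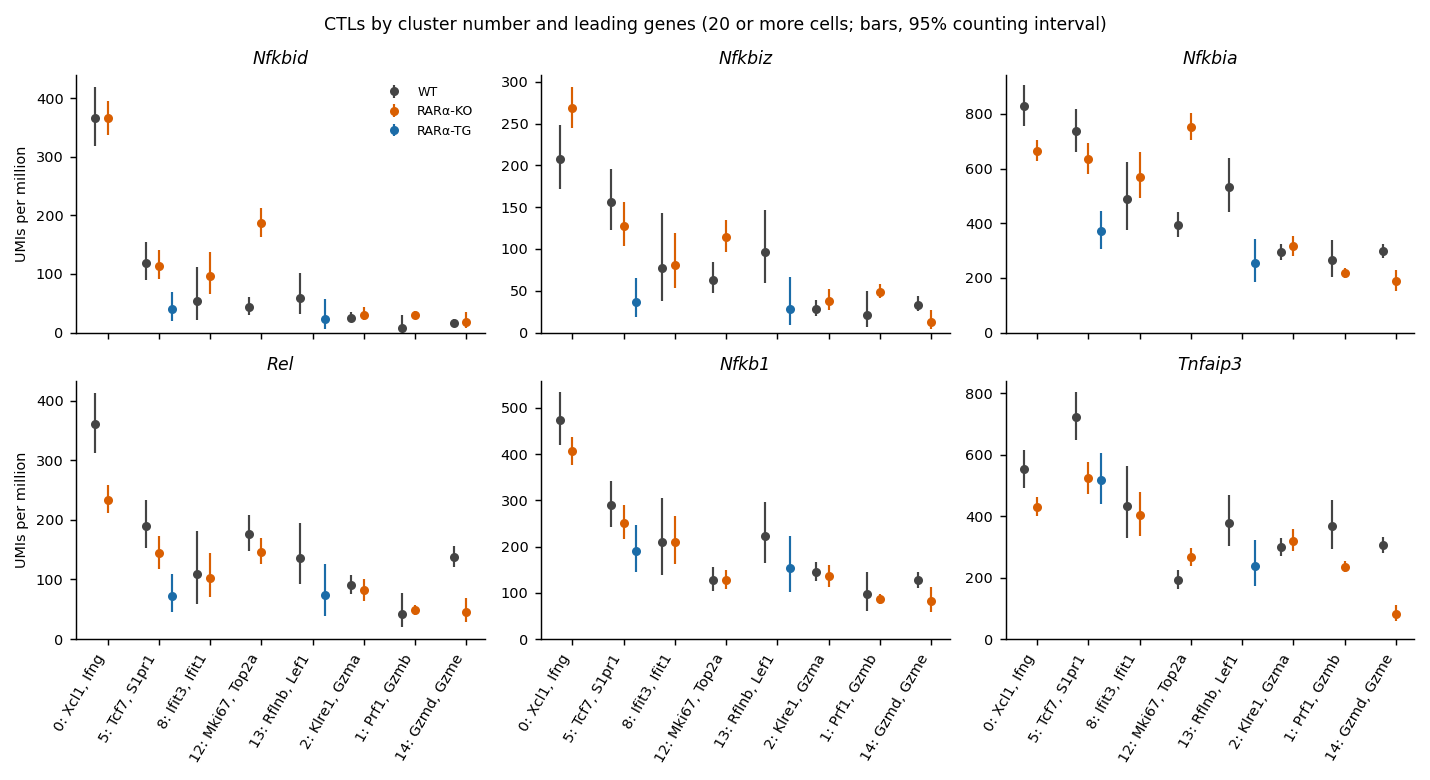
CPM of 6 of the genes in CTLs by cluster number and 2 leading genes, for each genotype with 20 or more CTLs in the cluster, with 95% counting intervals as bars. Nfkbid is at 366 CPM in cluster 0 of both WT and RARα-KO, and RARα-TG points exist only for clusters 5 and 13.

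CTLs of the genotypes lay in different clusters, which bears on every comparison of all CTLs. WT CTLs were mainly in clusters 2 (26.2%) and 14 (25.2%), RARα-KO CTLs in clusters 1 (27.0%) and 0 (23.8%), and RARα-TG CTLs in clusters 5 (61.1%) and 13 (22.1%). Cluster 0 held 11.9% of WT CTLs and no CTL of RARα-TG. In cluster 0 the first of the 10 leading genes was Xcl1, which also marks NK cells, and none was a T cell marker, but receptor contigs gave a clonotype to 84.7% of its barcodes. For that reason the values by cluster number and those of T cells taken by their receptor alone are given below.

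RARα-KO CTLs, taken over all clusters, had more of the nuclear IκB genes Nfkbid and Nfkbiz than WT CTLs, and somewhat less of the subunits Rel, Nfkb2 and Relb. Nfkbid was at 70.2 CPM (63.5 to 77.5) in WT and 137 CPM (129 to 145) in RARα-KO, for a log2 ratio of 0.96 (0.80 to 1.13). Nfkbiz was at 68.3 CPM (61.6 to 75.4) and 112 CPM (105 to 119), a log2 ratio of 0.71 (0.54 to 0.89). These 2 of 10 genes were higher past 1.5-fold and none was lower, where 4.11% of all 6597 tested genes were higher and 2.88% lower. The third nuclear regulator, Bcl3, went the same way by less, from 123 to 161 CPM, a log2 ratio of 0.39 (0.25 to 0.52).

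Among the subunits, Rel was at 155 CPM in WT and 119 in RARα-KO CTLs, a log2 ratio of -0.38 (-0.52 to -0.25). Nfkb2 was at 156 and 125 CPM, a log2 ratio of -0.31 (-0.45 to -0.18), and Relb at 141 and 116, a log2 ratio of -0.28 (-0.42 to -0.14). Nfkb1 showed no difference beyond counting error, with 188 and 189 CPM and a log2 ratio of 0.0037 (-0.11 to 0.12). The inhibitor genes split, with Nfkbia at 0.13 and Tnfaip3 at -0.19 on the log2 scale, and Traf1 was at -0.15. The median log2 ratio of the 10 genes was -0.074, beside 0.017 over all tested genes.

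The difference in Nfkbid and Nfkbiz varied between the clusters. Within cluster 0 the log2 ratio of RARα-KO to WT was -4.8e-04 (-0.23 to 0.23) for Nfkbid, -0.057 (-0.56 to 0.45) within cluster 5 and 1.79 (-0.11 to 4.87) within cluster 1, on 2 UMIs of WT. For Nfkbiz it was 0.37 (0.077 to 0.68) within cluster 0, 0.85 (0.37 to 1.35) within cluster 12 and -1.44 (-2.95 to -0.24) within cluster 14. Weighted to the cluster shares of WT, the log2 ratio over clusters was 0.23 for Nfkbid and 0.088 for Nfkbiz, both under 1.5-fold. Rel kept its direction there, at -0.59, and its ratio was -0.62 (-0.87 to -0.37) within cluster 0 and -1.61 (-2.31 to -0.98) within cluster 14. Relb varied, from -1.49 (-2.21 to -0.84) within cluster 14 to 0.64 (0.25 to 1.05) within cluster 12. Nfkb2 was at -1.18 (-1.74 to -0.65) within cluster 14 but at 0.051 (-0.35 to 0.46) within cluster 12. In cluster 12, led by Mki67 and Top2a, Nfkbid stood at 42.7 CPM in WT and 187 in RARα-KO, for a log2 ratio of 2.13 (1.60 to 2.70). Nfkbia was higher in the same cluster, at 0.94 (0.75 to 1.13), but lower in clusters 0, 5 and 14, at -0.32 (-0.47 to -0.16), -0.22 (-0.42 to -0.015) and -0.67, with all 3 intervals below 0. In cluster 14 Tnfaip3 was at 306 CPM in WT and 82.1 in RARα-KO, for a log2 ratio of -1.90 (-2.40 to -1.43).

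Single clonotypes also differed widely. In the 9 clonotypes of WT with 20 or more CTLs, Nfkbid ranged from 19.0 to 121 CPM with a median of 25.7, and in the 10 of RARα-KO it ranged from 10.8 to 287 CPM with a median of 122, so that the 2 sets overlapped. Nfkbiz ranged from 6.32 to 121 CPM with a median of 38.0 in WT and from 21.7 to 236 CPM with a median of 127 in RARα-KO, also with overlap. The largest RARα-KO clonotype held 113 of 968 CTLs with a receptor; without it and the largest of each other genotype, the log2 ratio was 0.69 for Nfkbid and 0.64 for Nfkbiz. With each clonotype weighted equally, it was 0.71 for Nfkbid, 0.25 for Nfkbiz and -0.69 for Rel. T cells taken by receptor alone gave 1.12, 0.81 and -0.24 in the same order. Thinning each cell to 1000 UMIs gave 0.43 for Nfkbiz. Over the alternatives, Nfkb2 ran from -0.46, with thinning, to -0.044, with each clonotype weighted equally, and Relb from -0.59 to -0.25.

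RARα-TG CTLs had less Rel, Nfkbid and Nfkbiz than WT CTLs. Rel was at 71.4 CPM (51.6 to 96.1) in RARα-TG against 155 CPM (145 to 166) in WT, a log2 ratio of -1.12 (-1.60 to -0.68). Nfkbid was at 39.8 CPM (25.5 to 59.3) in RARα-TG, a log2 ratio of -0.82 (-1.48 to -0.22), and Nfkbiz at 41.5 CPM (26.8 to 61.2), a log2 ratio of -0.72 (-1.36 to -0.13). With a leading hashtag of 80% or more Nfkbiz was at -0.48, under 1.5-fold. The 3 levels rest on 43, 24 and 25 UMIs in 113 cells. No gene of the 10 was higher past 1.5-fold and 3 were lower, where 12.7% of all 6598 tested genes were higher and 14% lower. Nfkbia was lower by less, at 342 CPM and a log2 ratio of -0.29 (-0.50 to -0.084), and Tnfaip3 was on the other side, at 425 CPM and 0.23 (0.040 to 0.42). The log2 ratio was -0.32 for Nfkb2, -0.31 for Bcl3, -0.25 for Traf1, -0.071 for Nfkb1 and 0.085 for Relb.

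Clusters 5 and 13 held enough CTLs of both RARα-TG and WT for a comparison within clusters. In cluster 5, with 134 CTLs of WT and 69 of RARα-TG, Nfkbiz was at 156 CPM in WT and 36.3 in RARα-TG, a log2 ratio of -2.11 (-3.17 to -1.18). The log2 ratio there was -1.58 (-2.61 to -0.66) for Nfkbid, -1.39 (-2.13 to -0.70) for Rel, and Nfkbia was at 737 CPM in WT and 369.7 in RARα-TG. Tnfaip3 turned its direction, from 722 CPM in WT to 518 in RARα-TG, a log2 ratio of -0.48 (-0.76 to -0.20). In cluster 13, led by Rflnb and Lef1, Bcl3 was at 183 CPM in WT and 45.3 in RARα-TG (8 UMIs), whereas in cluster 5 its log2 ratio was -0.31 (-0.97 to 0.33). The log2 ratio in cluster 13 was -1.76 (-3.52 to -0.31) for Nfkbiz and -1.07 (-1.60 to -0.56) for Nfkbia, and the intervals of Rel at -0.90 (-1.96 to 0.087) and Nfkbid at -1.39 (-3.46 to 0.31) included 0. Weighted to WT shares over these 2 clusters, the median log2 ratio of the 10 genes was -0.78, against -0.30 over all CTLs.

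**Figure D3:**
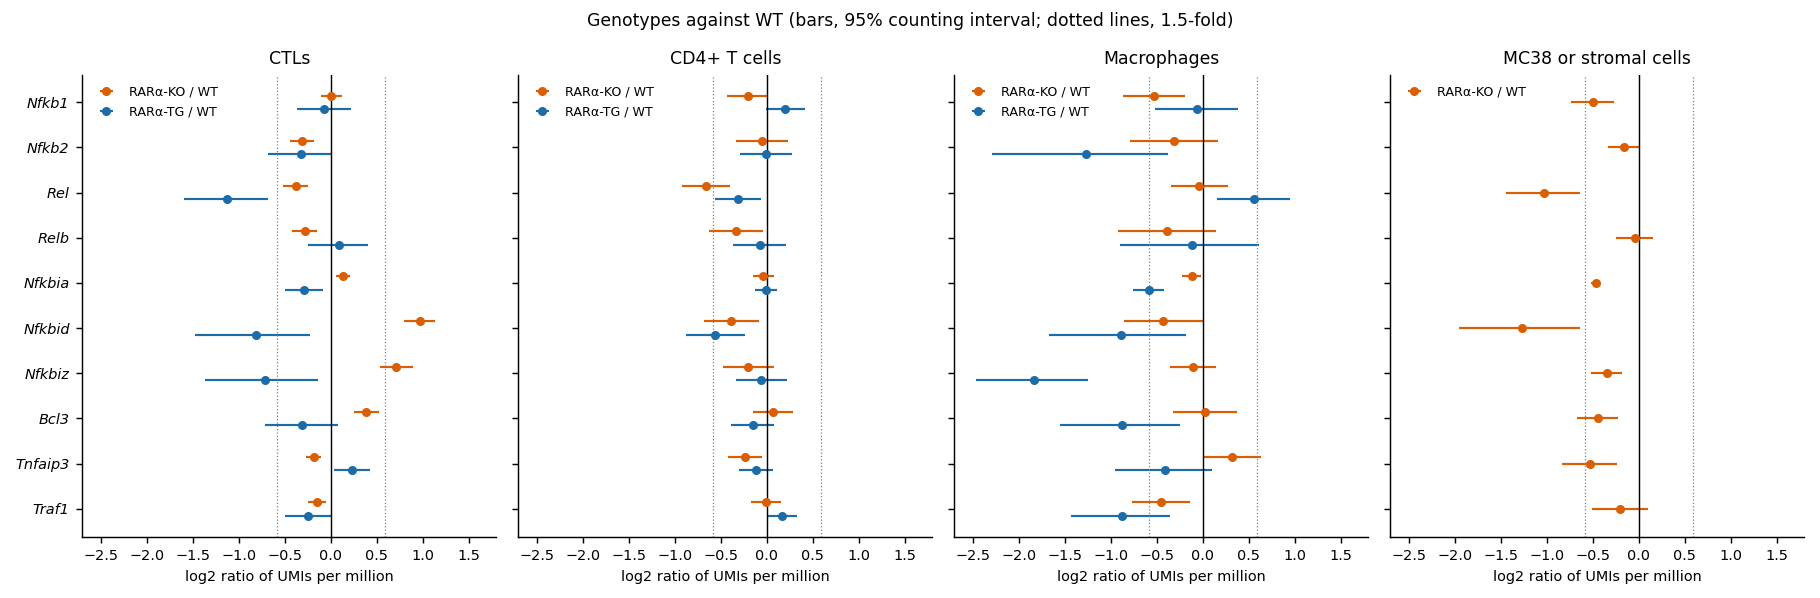
Log2 ratios of CPM of RARα-KO or RARα-TG to WT for the 10 genes in CTLs, CD4+ T cells, macrophages and MC38 or stromal cells, with 95% counting intervals as bars and dotted lines at 1.5-fold. Nfkbid and Nfkbiz lie right of the dotted line in RARα-KO CTLs, and Nfkbiz has the lowest ratio in RARα-TG macrophages.

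Clonal expansion was compared within genotypes, between CTLs of clonotypes of 10 or more cells and CTLs whose clonotype had 1 cell. None of the 10 genes passed 1.5-fold in WT (467 against 121 cells; 13.3% of all 6585 tested genes were higher and 9.52% lower) or in RARα-KO (679 against 93 cells; 7% and 11.4% of 6567). Nfkbia was lower in the expanded CTLs of both, with 411 against 533 CPM in WT, a log2 ratio of -0.37 (-0.54 to -0.20), and 495 against 639 CPM in RARα-KO, for a log2 ratio of -0.37 (-0.53 to -0.20). Tnfaip3 was lower beyond counting error in WT only, at -0.43 (-0.62 to -0.24), while in RARα-KO it was at -0.066 (-0.29 to 0.16); the difference between the genotypes was not tested. With a leading hashtag of 80% or more, the log2 ratio in WT was -0.99 for Nfkbid, -0.85 for Nfkbiz and -0.62 for Tnfaip3, all past 1.5-fold, and -0.58 for Nfkb1. The expanded CTLs were the deeper cells, with a median of 6017 against 4280 UMIs in WT and 5509 against 3947 in RARα-KO. In WT, Nfkbid went from -0.45 to 0.21 with each cell thinned to 1000 UMIs, and to 0.027 as a mean over cells. Over the alternatives in WT, Nfkbiz ran from -0.85 to 0.013 and Tnfaip3 from -0.72 to -0.32.

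In CD4+ T cells, Rel was lower in RARα-KO than in WT, at 267 CPM (236 to 300.0) in WT and 169 CPM (147 to 192) in RARα-KO, for a log2 ratio of -0.66 (-0.92 to -0.40). It was the 1 gene of the 10 that passed 1.5-fold, where 5.97% of all 6195 tested genes were higher and 9.06% lower. The genes other than Rel and Nfkbid lay between -0.33 (Relb) and 0.066 (Bcl3) on the log2 scale. Rel was lower with a Foxp3 UMI, at -0.75, and without one, at -0.62 on the log2 scale. Nfkbid went the other way than in CTLs, at 180.0 CPM in WT and 138 in RARα-KO, for a log2 ratio of -0.39 (-0.69 to -0.086). That ratio was -0.72 with each cell thinned to 1000 UMIs and -0.072 with clonotypes weighted equally.

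In RARα-TG CD4+ T cells none of the 10 genes passed 1.5-fold, where 7.68% of all 6032 tested genes were higher and 7.94% lower. Nfkbid came closest, at 122 CPM and a log2 ratio of -0.56 (-0.88 to -0.24) to WT. Rel was at 215 CPM, a log2 ratio of -0.31 (-0.56 to -0.062), below WT beyond counting error as in CTLs. The Foxp3+ cells among them were in different clusters, with 99 of 150 of RARα-TG and 10 of 120 of WT in cluster 11. In those of cluster 9 the order was the other way, with 441 CPM of Rel in RARα-TG against 287 in WT, and 234 against 209 of Nfkbid, whose intervals overlapped. The median log2 ratio of the 10 genes was -0.069 in RARα-TG and -0.21 in RARα-KO, beside -5.2e-04 and -0.034 over all tested genes.

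CD4+ T cells with a UMI of Foxp3, which codes for the transcription factor of regulatory T cells, were compared with those without one. A cell without a Foxp3 UMI may still express the gene, so the Foxp3- cells may include regulatory T cells. Their median depth was 3862, 4515 and 3803 UMIs in WT, RARα-KO and RARα-TG. Bcl3 was higher in the Foxp3+ cells of all 3 genotypes, at 365 against 175 CPM in WT, 416 against 233 in RARα-KO cells and 321 against 156 in RARα-TG cells, with log2 ratios of 1.06 (0.68 to 1.45), 0.84 (0.55 to 1.12) and 1.05 (0.66 to 1.44). Tnfaip3 was lower in all 3, at -0.70 (-0.97 to -0.43) in WT, -0.35 (-0.63 to -0.075) in RARα-KO cells and -0.39 (-0.64 to -0.13) in RARα-TG cells. Rel did not differ beyond counting error in any, at -0.020 (-0.37 to 0.34), -0.15 (-0.56 to 0.26) and 0.027 (-0.34 to 0.40). Traf1 was higher in all 3, at 0.29 (0.042 to 0.54), 0.36 (0.15 to 0.58) and 0.78 (0.54 to 1.02) in the same order. The subunit Relb was higher past 1.5-fold in WT and RARα-TG, at 0.61 (0.16 to 1.07) and 0.60 (0.17 to 1.05), and at 0.056 (-0.38 to 0.48) in RARα-KO.

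By count, 2 of the 10 genes were higher and 1 was lower past 1.5-fold in WT, where 17.7% of all 6298 tested genes were higher and 17.7% lower. In RARα-KO 1 was higher and 0 lower (19.9% and 14.9% of 6665 genes), and in RARα-TG 4 were higher and 0 lower (19.1% and 14.5% of 6165 genes). The genes past 1.5-fold in RARα-TG that were not so in WT were Traf1 and Nfkbiz, the latter at 234 against 122 CPM. With a leading hashtag of 80% or more Relb was at 0.36 in WT, under 1.5-fold.

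The Foxp3+ cells of RARα-TG fell into a pair of clusters that differed in most of the genes. Cluster 9, led by Lrrc32 and Foxp3, held 101 of 120 Foxp3+ cells from WT tumors, 76 of 79 from RARα-KO and 44 of 150 from RARα-TG, and cluster 11, led by Pcsk1, Klrg1 and Il10, held 10, 0 and 99. In RARα-TG, Nfkbiz was at 463 CPM in cluster 9 and 142 in cluster 11, Rel at 441 and 138, and Nfkbid at 234 and 60.5. Nfkbia and Traf1 were higher in cluster 9 as well, at 1763 against 959.5 and 1138 against 576 CPM, whereas Bcl3 was at 379 and 292. Within cluster 9, WT and RARα-KO cells had 287 and 162 CPM of Rel and 247 and 172 of Nfkbiz, all below RARα-TG. The Foxp3+ cells of cluster 9 alone, against the Foxp3- cells of the same genotype, gave log2 ratios of Bcl3 of 1.08 (0.69 to 1.49), 0.92 (0.62 to 1.21) and 1.28 (0.79 to 1.78), in the order WT, RARα-KO, RARα-TG. Tnfaip3 was then at -0.69 (-0.98 to -0.40), -0.25 (-0.54 to 0.027) and -0.029 (-0.41 to 0.34), so that its lower level passed counting error in WT alone. Rel was at 0.092 (-0.27 to 0.46), -0.11 (-0.54 to 0.31) and 1.05 (0.61 to 1.49), and was thus higher in RARα-TG. Since cluster 11 is almost all from 1 hashtag, state and genotype cannot be told apart in it.

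Macrophages had a different make-up of the 10 genes than CTLs of the same tumor. In WT, 5 genes were higher and 1 was lower past 1.5-fold, where 23.6% of all 7422 tested genes were higher and 42.8% lower. Nfkbia was at 2264 CPM in macrophages and 418 in CTLs, a log2 ratio of 2.44 (2.34 to 2.54). Nfkbiz, an induced gene of Toll-like receptor and IL-1 responses, was at 390.1 and 68.3 CPM, a log2 ratio of 2.51 (2.27 to 2.76). Both were higher in the other genotypes too, Nfkbia at 2.18 in RARα-KO cells and 2.14 in RARα-TG cells, and Nfkbiz at 1.69 and 1.40. Rel was higher in macrophages, at 0.66, 1.01 and 2.34 in the order WT, RARα-KO and RARα-TG. Tnfaip3 was lower, at -0.70, -0.20 and -1.35 in the same order. Nfkbid did not keep its direction, at 1.10 (0.75 to 1.44) in WT and 1.03 (0.10 to 1.95) in RARα-TG but -0.29 (-0.59 to 0.0032) in RARα-KO, an interval that includes 0. With the 23 macrophages and 546 CTLs of WT that a leading hashtag of 80% left, Bcl3 was at -0.0058 in place of 0.66 (0.35 to 0.94), Tnfaip3 at -1.39, Nfkb2 at -1.04 in place of -0.40, Nfkbiz at 2.08 and Traf1 at -0.44 in place of -0.049.

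RARα-TG macrophages, whose transgene is driven by a lymphoid promoter, had lower levels of 6 of the 10 genes than WT macrophages. None was higher, where 21.5% of all 6587 tested genes were higher and 22.6% lower. Nfkbiz was at 390.1 CPM (341 to 445) in the 78 macrophages of WT and 109.7 CPM (72.3 to 159.6) in the 35 of RARα-TG, a log2 ratio of -1.83 (-2.46 to -1.25). Nfkbia was at 2264 and 1507 CPM, a log2 ratio of -0.59 (-0.76 to -0.42). The others were Nfkb2 at -1.27 (-2.30 to -0.38) on 12 UMIs of RARα-TG, Nfkbid at -0.89 (-1.67 to -0.18), Bcl3 at -0.88 (-1.55 to -0.25) and Traf1 at -0.87 (-1.43 to -0.35). Rel stood apart, at 246 CPM in WT and 362 in RARα-TG, a log2 ratio of 0.55 (0.16 to 0.95). Over the alternatives its ratio ran from 0.13, as a mean over cells, to 0.76.

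Stricter hashtags moved these values. With a leading hashtag of 80% or more, which left 23 macrophages of WT and 32 of RARα-TG, the log2 ratio of Nfkbiz was -1.05, still past 1.5-fold, and the median of the 10 genes was -0.20 in place of -0.73. Bcl3 was then at 0.012, Nfkbia at -0.30 and Traf1 at -0.47, none past 1.5-fold, and Tnfaip3 at 0.40 in place of -0.41. In RARα-KO macrophages none of the 10 genes passed 1.5-fold, where 14.9% of all 6475 tested genes were higher and 15.4% lower. Nfkb1 at -0.53 (-0.86 to -0.19) and Traf1 at -0.45 (-0.77 to -0.14) were lower and Tnfaip3 at 0.32 (0.0055 to 0.64) was higher beyond counting error. Without the 16 macrophages of RARα-KO and 3 of WT that carried T cell receptor contigs or RNA, Tnfaip3 was at 0.39. With a leading hashtag of 80% or more, Tnfaip3 at 1.05 and Bcl3 at 0.74 were past 1.5-fold, Nfkbiz was at 0.55, Nfkb2 at 0.31 and Traf1 at -0.040.

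Mature dendritic cells migrate from tissue and present antigen. With the genotypes pooled, they had higher levels of 9 of the 10 genes than the other dendritic cells, and less Bcl3. Over all genotypes together (38 against 61 cells), 21.6% of 7609 tested genes were higher and 36.5% lower past 1.5-fold. Relb, the subunit of the alternative branch, had the largest log2 ratio of the 10, 2.34 (1.90 to 2.80), with 577 against 114 CPM. Traf1 followed at 2.01 (1.67 to 2.36), Tnfaip3 at 1.65 (1.11 to 2.22), Nfkbia at 1.58 (1.38 to 1.78), Rel at 1.52 (1.22 to 1.82) and Nfkb2 at 1.43 (0.97 to 1.91). The median log2 ratio was 1.47, beside -0.25 over all tested genes.

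Part of this comparison was one of dendritic cell kinds, as 42 of the 61 other dendritic cells were in cluster 17, led by Ly6d and Siglech, and 32 of the 38 mature ones in cluster 15, led by Fscn1 and Ccl22. Within cluster 15 the mature cells still had 629 CPM of Relb against 202 in the 19 others, 2130.3 against 660.1 of Nfkbia, and 873 against 415 of Traf1. Cluster 17 had 56.1 CPM of Relb, 52.6 of Traf1 and 484 of Bcl3. By genotype, the 16 mature cells of WT had 3142 CPM (2862 to 3442) of Nfkbia against 1033 CPM (892 to 1191) in the 18 of RARα-KO. For Nfkb1 the levels were 634 CPM (512 to 777) and 152 CPM (101 to 220.1), while Relb was at 545 and 598 CPM. In the other dendritic cells of all genotypes, Nfkb1 was at 218 CPM in cluster 15 and 207 in cluster 17. The mature cells of RARα-KO were above neither, so the higher pooled level of Nfkb1 did not hold in that genotype. Groups of under 20 cells got no ratio.

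**Figure D4:**
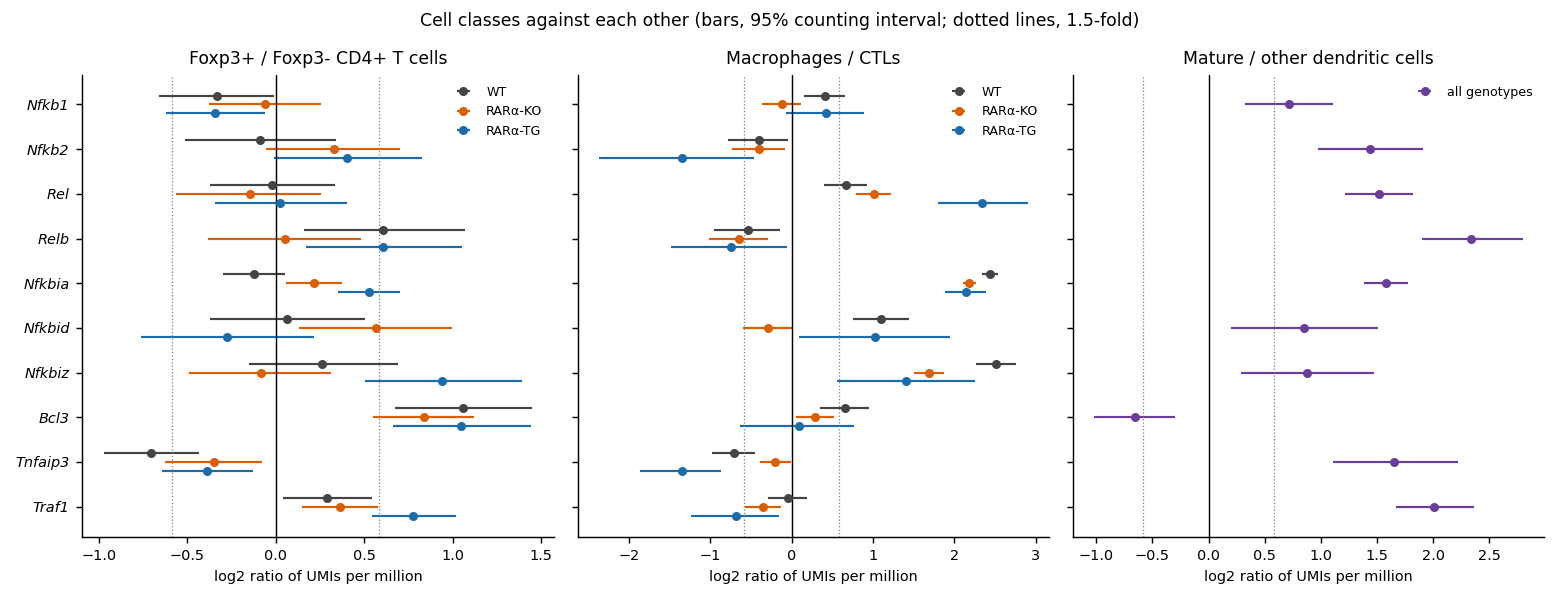
Log2 ratios of CPM for the 10 genes between Foxp3+ and Foxp3- CD4+ T cells and between macrophages and CTLs in each genotype, and between mature and other dendritic cells over all genotypes, with 95% counting intervals as bars and dotted lines at 1.5-fold. Bcl3 is right of 0 in Foxp3+ cells of the 3 genotypes, Nfkbia and Nfkbiz are right of it in macrophages, and only Bcl3 is left of it in mature dendritic cells.

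The distal Lck and CD2 promoters act in lymphoid cells, and MC38 or stromal cells were compared as cells outside their reach. In cells from RARα-KO mice, none of the genes was above WT, and the median log2 ratio of the 10 was -0.46, beside 0.017 over all tested genes. Nfkbid was at 14.1 CPM in WT and 5.85 in RARα-KO (123 and 25 UMIs), a log2 ratio of -1.27 (-1.95 to -0.64), and Rel at 31.5 and 15.4, a log2 ratio of -1.03 (-1.44 to -0.64). These 2 passed 1.5-fold, where 6.3% of all 10485 tested genes were higher and 3.55% lower. The other 8 genes lay between -0.53 (Tnfaip3) and -0.045 (Relb). Nfkbia was at 1522 and 1100.4 CPM, a log2 ratio of -0.47 (-0.52 to -0.42). In the 24 cells from RARα-TG mice, 3 of the 10 genes were higher than in WT and 0 lower past 1.5-fold, where 16.4% of all 10388 tested genes were higher and 19.1% lower. These were Nfkb1 at 1.03 (0.60 to 1.43), Rel at 0.82 (0.12 to 1.45) and Traf1 at 0.82 (0.15 to 1.42), on 54, 22 and 24 UMIs of RARα-TG. Nfkbia was at 1704 CPM, and Trbc2 was at 37.9 CPM in them against 0.688 in WT. Cluster 10 of this class, led by Tnnt2 and Cald1, held 5 of these 24 cells and 13 of the 286 from WT. Its median depth was 2637 UMIs, against 27238 in cluster 6, led by Ccn1 and Has1. Values with stricter hashtags were not computed for this class.

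Other genes of the pathway were read from lists, with the same 1.5-fold limit, and their counts stand beside the shares of all tested genes. Of the 34 signalling genes, which hold kinases, adaptors, ubiquitin ligases and Rela, 31 were tested in RARα-KO CTLs and 0 were higher and 0 lower than in WT, beside 4.11% and 2.88% of all genes (median log2 ratio -0.031). Of 17 tested target genes, 7 were higher and 2 lower (median 0.41). The higher ones included the chemokine genes Ccl3 at 3.26 (3.10 to 3.43) and Ccl4 at 3.25 (3.17 to 3.33) and the transcription factor gene Irf4 at 1.03 (0.80 to 1.26), and the lower ones were Cd83 at -1.70 (-2.21 to -1.20) and Csf2 at -3.48 (-4.30 to -2.74). Of 9 receptor genes, Tnfrsf9, which codes for a costimulatory receptor, was higher at 1.75 (1.68 to 1.81) and Tnfrsf4 and Il1r2 were lower, and of 5 ligand genes Tnf was higher at 1.03 (0.80 to 1.26) and Tnfsf11 lower. Among 15 immediate early and heat shock genes, which tissue dissociation is known to induce, 8 were higher and 0 lower (median 0.72), with Hspa1a at 2.15 (1.94 to 2.37) and Fos at 1.92 (1.51 to 2.35); their part in the higher Nfkbid and Nfkbiz was not tested.

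In RARα-TG CTLs, 12 of 17 target genes were lower and 1 was higher (median -1.07), with Irf4 at -1.07 (-2.09 to -0.20), Il2ra at -0.94 (-1.42 to -0.49), Bcl2l1 at -0.79 (-1.45 to -0.19) and Ccl4 at -3.80 (-4.87 to -2.92). Of 5 ligand genes 4 were lower (Tnf, Lta, Tnfsf9 and Tnfsf11), of 9 receptor genes 4 were lower and 2 higher, and of 31 signalling genes 4 were lower and 1 higher. Of all genes 14% were lower and 12.7% higher, and the share of signalling genes that were lower was near the former. The immediate early and heat shock genes were mixed, with 8 of 15 higher, among them Hspa1a at 2.19 (1.84 to 2.54), and 4 lower, among them Egr1 at -0.83 (-1.54 to -0.20). The median over all tested genes was 0.0081 in RARα-TG CTLs, 0.017 in RARα-KO CTLs and 0.0062 in RARα-TG macrophages.

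RARα-TG macrophages had 15 of 23 tested target genes lower and 1 higher (median -1.19), including Vcam1 at -3.47 (-6.56 to -1.55) and Sod2 at -1.19 (-1.58 to -0.82). The chemokine gene Cxcl10 had 1099 UMIs in WT and 0 in RARα-TG, a log2 ratio of -7.29 or lower with 3 UMIs in place of 0. The ligand genes Il1b at -1.07 (-1.18 to -0.96) and Tnf at -4.10 (-4.84 to -3.44) were among 5 of 6 that were lower. These list values were not repeated with stricter hashtags, which left 23 of 78 macrophages of WT. Of 30 signalling genes 14 were lower and 3 higher, and of 15 immediate early and heat shock genes 3 were lower and 2 higher, beside 22.6% lower and 21.5% higher of all genes. Lyz2, a macrophage marker, was at 7151 CPM in WT, against 3068 in RARα-KO and 10475 in RARα-TG macrophages, and the part of such differences between macrophages in these values was not tested.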

How the data were processed

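Reads were mapped by the authors to mm10 by means of Cell Ranger (6.1.0 per the submitters' processing notes, whereas the matrix header names major version 4). What they deposited were raw UMI counts of genes and 3 hashtags in 730308 barcodes and a table of receptor contigs. The members and lists were chosen with earlier results of these data known. Cells were called anew after Cell Ranger's 2 steps (3000 expected cells; barcodes with 500 or more UMIs tested at a false discovery rate of 0.01) and held 96.4% of the 46394322 gene UMIs. Genotypes came from HTODemux (Seurat 5.3.0, R 4.3.3, quantile 0.99), which left out 426 doublets between genotypes and 234 cells without a hashtag; doublets within a genotype remained. Cells were clustered with scanpy 1.11.5 (Leiden, resolution 1, 30 principal components) in Python 3.11.15. A T cell cluster had a clonotype in over 50% of its barcodes, other clusters were named from markers, and cluster 16 (median mitochondrial share 10.9%) stayed unnamed. CD4+ T cells had a Cd4 UMI and no Cd8a or Cd8b1 UMI. T cells in neither gate were left out of the ratios reported but kept among the groups of the correlations. The median depth of a class and genotype with 20 or more cells ranged from 2059 to 30186.5 UMIs.

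UMIs were summed per class and genotype. Intervals of sums are exact Poisson and those of ratios exact binomial, at 95%, for counting error only. Those of ratios were tested on Poisson counts simulated from the profile of WT CTLs. Such counts hold counting error alone, so the test cannot show how the intervals fare with variation between cells or clonotypes. A gene was tested with an average of 0.1 or more UMIs per cell in either group, which all 10 genes passed in every comparison; a count of 0 was set to 3 UMIs. List genes are named where they passed 1.5-fold with 20 or more UMIs. The alternatives were another CPM total, thinning to 1000 UMIs, means over cells or clonotypes, no filter, another clustering, stricter hashtags, a mitochondrial limit of 10%, T cells by receptor, and leaving out cluster 14 or macrophages with T cell RNA; leaving out the largest CTL clonotypes was added after seeing the data.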

Additional observations from a re-analysis of the deposited data

Results flagged for a closer look

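Some genes lay on opposite sides of WT in 2 cell classes of the same genotype, with both counting intervals off 0; the difference between the classes was not tested in any of these cases. Nfkbid in RARα-KO was above WT in CTLs (log2 ratio 0.96) and below it in CD4+ T cells (-0.39). Over the alternatives it ran from 0.23 to 1.12 in CTLs and from -0.72 to -0.072 in CD4+ T cells. Nfkbia in RARα-KO was at 0.13 in CTLs and -0.12 in macrophages, but both signs turned under alternatives, to -0.11 within CTL clusters and to 0.10 in macrophages with stricter hashtags. Tnfaip3 in RARα-KO was at -0.19 in CTLs and -0.24 in CD4+ T cells, against 0.32 in macrophages. Stricter hashtags gave 1.05 for the last. Rel in RARα-TG was at -1.12 in CTLs and -0.31 in CD4+ T cells, against 0.55 in macrophages, where the alternatives ran from 0.13 to 0.76. Traf1 in RARα-TG was at 0.17 in CD4+ T cells and -0.87 in macrophages.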

How the results depend on the processing

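The main interval of each of the 12 medians over the 10 genes ran from the median lower to the median upper bound of those genes. Of 124 alternative values, 117 stayed within it, 7 moved and none changed the sign of a median whose interval excluded 0. Only RARα-TG macrophages, WT macrophages against CTLs, and Foxp3+ against Foxp3- cells of RARα-TG had such an interval, so a change of sign could be counted only there. The medians of CTLs moved within clusters (RARα-KO -0.29, RARα-TG -0.78), and without cluster 14 that of RARα-KO was -0.18. With a leading hashtag of 80% the medians of RARα-TG macrophages and of WT macrophages against CTLs were -0.20 and 0.17, and the latter was 0.23 with clonotypes weighted equally. Thinning gave 0.28 for expanded CTLs of RARα-KO. Of 1239 values of single genes, 1096 stayed within their interval, 131 moved and 12 reversed: within clusters, Nfkbia in RARα-KO CTLs (-0.11) and Tnfaip3 in RARα-TG CTLs (-0.51, and -0.26 with clonotypes weighted equally); with stricter hashtags, Nfkbia in RARα-KO macrophages (0.10), Bcl3 in RARα-TG macrophages (0.012) and Bcl3 in WT macrophages against CTLs (-0.0058); with thinning, Nfkbia in RARα-KO macrophages (0.053), Nfkbid in expanded WT CTLs (0.21, and 0.027 as a mean over cells), Rel in expanded RARα-KO CTLs (-0.38), and Nfkb1 in WT (0.17) and Nfkbid in RARα-KO (-0.046) Foxp3+ cells. The cause was not tested. Thinning left no value for Nfkbiz in RARα-TG macrophages, and dropping the filter on low genes changed nothing, since all 10 passed it. Values identical to the main value, 30 of the 124 and 300 of the 1239, count among those that stayed. No paired analysis was possible because each genotype is 1 sample. RARα-TG values rest on 602657 UMIs in CTLs and 246113 in macrophages.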

Other observations

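T cells in neither gate, which lacked both Cd8a and Cd4 UMIs or carried UMIs of both lineages, were shallower than gated cells (median 2950, 3054 and 2862.5 UMIs in WT, RARα-KO and RARα-TG). They are in no ratio above, only among the groups of the correlations. They had 1235, 900.4 and 1221 CPM of Nfkbia, 308, 207 and 209 of Rel, 649.6, 372 and 611 of Traf1 and 214, 266 and 164 of Nfkbid. Rel was thus below WT in both other genotypes here as well, as it was in CTLs and CD4+ T cells taken whole. In the Foxp3+ cells of cluster 9 alone, it was higher in RARα-TG, at 441 CPM against 287 in WT. In RARα-KO, Rel was also below WT in MC38 or stromal cells, so that its lower level was not confined to T cells.

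Neutrophils were too few in WT and RARα-TG (10 cells each) for a ratio. Nfkbia took 9833 CPM (8501 to 11314) of WT, 9447 CPM (8772 to 10159.8) of RARα-KO and 7114 CPM (5912 to 8488) of RARα-TG neutrophils, and Nfkbiz 1714, 898 and 1041 CPM, at a median of 1691.5, 2059 and 1551.5 UMIs per cell.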
